A study of Mus musculus with 6 samples.

Results

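Metallothioneins and the genes that set zinc levels in hepatocytes were followed across 6 mouse livers: Mt1, Mt2, Mtf1, Slc30a1, Slc30a10, Slc39a4 and Slc39a14. These 7 genes were picked by symbol from the 19505 named genes of the array, with earlier results of the same livers in view, and each is read by 1 row. The livers came from male C57BL/6 mice aged 8 weeks. Of these, 3 were wild type (WT, animals 38, 40 and 31 for replicates 1 to 3) and 3 carried a knockout of Hmgb2 (HMGB2-KO, animals 39, 41 and 32), a gene for a chromatin protein that bends DNA. No treatment or surgery is named for any of them, and total RNA of each liver was read on a Clariom S array. The sources used here do not state which part of Hmgb2 was deleted, or in which cells.

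Metallothioneins are small, cysteine-rich proteins that bind zinc and copper and buffer the free zinc of the cell. The transcription factor MTF1, encoded by Mtf1, senses zinc and switches on the metallothionein genes through short promoter motifs called metal response elements. In liver Mt1 and Mt2 are also known to respond to glucocorticoids, fasting and inflammatory cytokines. Transporters of the SLC30 family (ZnT) move zinc out of the cytosol, and those of the SLC39 family (ZIP) move it in.

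Each value is a difference, on a scale taken as log2, from a baseline of its own row that the sources used here do not give, taken after the median of each array was set to 0. A value thus ranks livers for 1 gene and says nothing of how abundant the gene is. In 24.2% of rows 2 of the 6 livers lie at equal distances on opposite sides of the baseline (to within 1e-06), and Mt1 is such a row, with deposited values of 0.0816 in WT replicate 2 and -0.0816 in HMGB2-KO replicate 1. The array of WT replicate 2 had a median of 0.26 before centring, against -0.05 to 0.01 on the other 5 arrays, so centring moves its values most. Hmgb2 lay at 0.47, 0.36 and 0.42 in WT replicates 1 to 3 and at -0.66, -0.33 and -0.43 in HMGB2-KO replicates 1 to 3, each liver on the side of its label. The median over all genes of the standard deviation within a genotype was 0.19, and with 3 arrays a group their number limits the precision. In whole liver RNA, fewer cells of a type and less RNA per cell cannot be told apart.

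The promoter stretches of Mt2 and Slc30a10 are shown because the values of these 2 genes differed between livers in opposite directions (below), and the window of each ends at the gene's listed start. They are the 250 bases before the start in RefSeq, build GRCm38.p6, plus strand, at chr8:94172368-94172617 for Mt2 and chr1:185454598-185454847 for Slc30a10. Capitals mark matches on either strand to the metal response element core, searched as TGCACNC and TGCGCNC.

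Mt2: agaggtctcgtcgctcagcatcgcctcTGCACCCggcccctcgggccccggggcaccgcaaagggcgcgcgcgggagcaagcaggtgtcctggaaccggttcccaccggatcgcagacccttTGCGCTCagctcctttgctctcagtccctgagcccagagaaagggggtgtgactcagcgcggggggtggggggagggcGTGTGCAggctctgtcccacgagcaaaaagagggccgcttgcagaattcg

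Slc30a10: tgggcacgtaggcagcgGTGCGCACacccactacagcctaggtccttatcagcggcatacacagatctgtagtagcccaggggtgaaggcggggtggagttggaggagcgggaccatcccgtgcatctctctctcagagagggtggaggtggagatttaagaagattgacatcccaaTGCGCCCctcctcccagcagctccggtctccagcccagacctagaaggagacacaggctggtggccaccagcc

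Both windows hold 3 matches, and in Slc30a10 a forward and a reverse match overlap in 1 run of capitals. Of 32851 windows of the same length, 21.4% hold at least 1 match and 1.26% at least 3. The Mt2 window also has 1 match to TGACNNNGC, the core of the antioxidant response element, which 10.2% of windows hold. The table matched 5 of the 7 genes. The windows of Mt1 and Slc30a1 hold 1 match each and overlap the listed span of their genes, so they are not printed, and that of Mtf1 holds 0. Slc39a4 and Slc39a14 have no entry. A match is a run of letters, not a site shown to bind MTF1.

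Mt1 and Mt2 spanned a far wider range over the 6 livers than the other 5 genes did, and genotype did not order them. For Mt1 the WT replicates 1 to 3 lay at -2.49, -0.17 and -5.07, and the HMGB2-KO replicates 1 to 3 at -0.05, -1.21 and -5.20. For Mt2, its neighbour on chromosome 8, they lay at -4.48, -0.42 and -6.37, and at -0.28, -1.69 and -6.61. Both livers numbered 3 were the lowest of all for both genes, WT replicate 1 came next, and HMGB2-KO replicate 1 and WT replicate 2 were the highest.

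The livers took the same order in both genes. HMGB2-KO replicate 1 and WT replicate 2, at the top, lay 0.13 apart for Mt1 and 0.14 for Mt2, and they change places with the values as deposited or with arrays centred on plasma protein genes. The range from the highest to the lowest liver was 5.15 for Mt1 and 6.33 for Mt2, which is 35.6-fold and 80.7-fold if the scale is log2. By this range Mt2 ranked 13 and Mt1 ranked 38 of the 19505 genes. Of the 39 genes with a range of at least 5, 33 owed it to 1 liver lying more than 2 below the highest. In 4 of them, Mt1, Mt2, Rgs16 and Saa2, at least 3 livers lay that far below. For Saa2 it was 5 livers, so its range was owed to 1 high liver, HMGB2-KO replicate 3. For Mt1 and Mt2 it was 3 livers each. Their 2 highest livers lay close together, as did their 2 lowest (0.13 apart for Mt1 and 0.25 for Mt2). The metallothionein range thus does not rest on a single array.

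**Figure D1:**
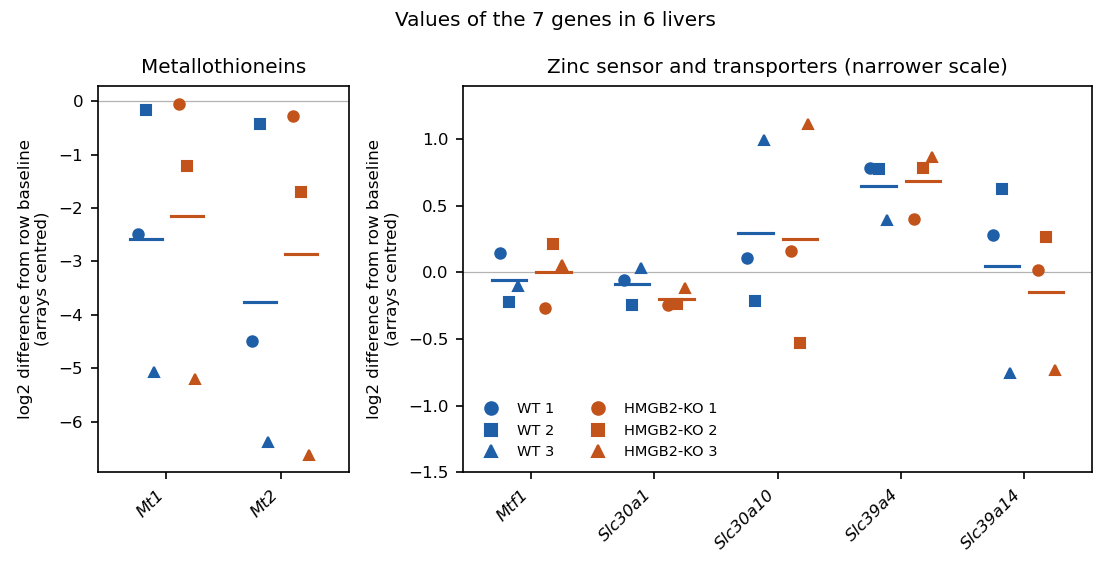
Values of the 7 genes in each liver, as log2 differences from the row baseline after centring of each array, with WT in blue, HMGB2-KO in orange, marker shapes for liver numbers 1 to 3, and a line at each genotype's mean. The left panel runs from about 0 to -6.61 and the right panel has a narrower scale; the triangles of livers numbered 3 lie lowest for Mt1, Mt2 and Slc39a14 and highest for Slc30a10.

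The first comparison asked whether loss of HMGB2 goes with a change in these genes. None of the 7 passed the adjusted threshold of 0.05 in limma, where 0% of all genes passed, and 0 of 7 had an unadjusted p under 0.05, against 3.68% of all genes. Hmgb2 itself did not pass (log2 fold change -0.89, limma adjusted p = 0.645), so a gene that did not pass is not thereby shown to be unchanged. WT and HMGB2-KO values overlapped for each of the 7, and over all genes the groups did not overlap in 9.67%. Of the members 4 had a positive and 3 a negative estimate.

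For the metallothioneins the genotype estimate was far smaller than the spread within a genotype. Mt1 averaged -2.58 ± 2.45 over the 3 WT livers and -2.15 ± 2.70 over the 3 HMGB2-KO livers (SD), and the log2 fold change, HMGB2-KO against WT, was 0.43 (SE 1.53, 95% confidence interval -3.13 to 3.99, limma adjusted p = 0.999). Mt2 averaged -3.76 ± 3.04 and -2.86 ± 3.33, with a log2 fold change of 0.89 (SE 1.89, interval -3.50 to 5.29, limma adjusted p = 0.997). These intervals leave room for large differences in either direction. By liver number, HMGB2-KO minus WT was 2.45, -1.04 and -0.13 for Mt1 and 4.20, -1.27 and -0.25 for Mt2 at numbers 1, 2 and 3. Only the livers numbered 1 gave a positive difference, through the low value of WT replicate 1.

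Single livers turned the sign of these estimates. Leaving out WT replicate 3 gave -0.82 for Mt1 and -0.41 for Mt2, and leaving out HMGB2-KO replicate 1 gave -0.63 and -0.40. Leaving out HMGB2-KO replicate 2 gave -0.04 and 0.31. In the other direction, the estimates were 1.63 and 2.56 once WT replicate 2 was dropped, and 1.95 and 2.77 once HMGB2-KO replicate 3 was. For Mt2 alone, dropping WT replicate 1 lowered the estimate to 0.53.

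Mtf1, the zinc sensor, differed little between livers. It lay at 0.15, -0.22 and -0.10 in WT and -0.27, 0.22 and 0.05 in HMGB2-KO, so neither genotype was the higher. Its log2 fold change was 0.06 (SE 0.17, interval -0.34 to 0.45), or -0.06 with the values as deposited. Its whole range over the 6 livers was 0.49.

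Slc30a1 encodes ZnT1, the zinc exporter of the plasma membrane and itself a target of MTF1. It lay at -0.06, -0.24 and 0.03 in WT and -0.24, -0.24 and -0.12 in HMGB2-KO, a range of 0.27. The log2 fold change was -0.11 (SE 0.13, interval -0.41 to 0.19).

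Slc30a10 encodes an exporter best known for clearing manganese from liver cells. It lay at 0.11, -0.21 and 0.99 in WT and 0.16, -0.53 and 1.12 in HMGB2-KO. Both livers numbered 3 were above all others, the reverse of the metallothioneins. The genotype means were 0.30 ± 0.62 and 0.25 ± 0.83 (SD over 3 livers each), with a log2 fold change of -0.05 (SE 0.45, interval -1.09 to 0.99), or 0.30 once WT replicate 3 and 0.34 once HMGB2-KO replicate 2 was dropped.

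Slc39a14 encodes ZIP14, the importer that brings zinc, iron and manganese into hepatocytes. It lay at 0.28, 0.63 and -0.76 in WT and 0.02, 0.27 and -0.73 in HMGB2-KO, so both livers numbered 3 were below all others. Its log2 fold change was -0.20 (SE 0.39, interval -1.10 to 0.70), or 0.09 once either WT replicate 2 or HMGB2-KO replicate 3 was dropped. Slc39a4 encodes ZIP4, known chiefly as the importer of dietary zinc in the gut. It lay at 0.78, 0.78 and 0.39 in WT and 0.40, 0.78 and 0.87 in HMGB2-KO, above its baseline in every liver. The low livers were WT replicate 3 and HMGB2-KO replicate 1, and the log2 fold change was 0.03 (SE 0.18, interval -0.38 to 0.44), or -0.09 with the values as deposited.

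The livers were also read by the number in their titles, since the numbers 3 belong to animals 31 and 32 and the numbers 1 and 2 to animals 38 to 41. The labels do not say what sets these animals apart. The genes were chosen with these values in view, so what follows is a description without a test of the members. In 4 of the 7, the 2 livers numbered 3 lay on 1 side of the other 4, lower for Mt1, Mt2 and Slc39a14 and higher for Slc30a10. Over all genes this held in 19.7%, with 9.32% lower and 10.4% higher. All 4 also differed by at least 1 log2, as 0.877% of all genes did without overlap (0.579% lower, 0.297% higher).

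Mt2 averaged -6.49 in livers numbered 3 and -1.72 in the others, a difference of -4.77. Mt1 differed by -4.15, with means of -5.13 and -0.98. By size of this difference Mt2 ranked 2 and Mt1 ranked 6 of all genes. Within WT the difference was -3.74 for Mt1 and -3.92 for Mt2, and within HMGB2-KO -4.57 and -5.63. The low value was thus found in both genotypes. The livers numbered 3 lay 0.13 apart for Mt1 and 0.25 for Mt2, and the 4 others were spread over 2.45 and 4.20.

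WT replicate 1 stood between the sets. It was 1.89 above the higher liver numbered 3 for Mt2 and 2.58 above it for Mt1. Liver number thus does not describe the whole metallothionein pattern, since 1 liver of the set numbered 1 and 2 was also far below the top.

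Of the transporters, Slc39a14 differed by -1.04 between livers numbered 3 and the others, with -1.21 within WT and -0.87 within HMGB2-KO. Slc30a10 differed by 1.17, with 1.04 within WT and 1.30 within HMGB2-KO. With the alternatives tried in scaling and with any 1 liver left out, these differences stayed between -1.21 and -0.87 for Slc39a14 and between 1.01 and 1.31 for Slc30a10, those of Mt1 between -4.84 and -3.72 and those of Mt2 between -5.77 and -3.92. Mtf1 (0.01), Slc39a4 (-0.05) and Slc30a1 (0.15) had differences within 0.2 of 0, and those of Mtf1 and Slc39a4 change sign with the scaling.

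Over all genes, 8 (0.041%) passed the adjusted threshold for liver number in limma with genotype in the fit, and none of them was a member. That count was 3 once HMGB2-KO replicate 1 was dropped, and 22 with quantile normalization or array weights. Dropping a liver numbered 3 left 1 such liver, assumed to vary like the others, and a count of 1. Whether the genotype difference itself differed between livers numbered 3 and the others was tested with an interaction term. It passed for 0 of the 7 members and 0% of all genes in limma, with 2 residual degrees of freedom. An unadjusted p under 0.05 in limma was found for 618 of 19505 genes and for 0 of the 7 members. The smallest unadjusted p among the members was that of Slc39a4, at 0.0955 in limma.

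The rest of both transporter families gives the scale for these differences. Of 10 Slc30 and 14 Slc39 genes, all measured, 20 are not among the 7 genes, and their differences between livers numbered 3 and the others ran from -0.28 to 0.43. In 3 of the 20 the sets did not overlap, a share near the 19.7% of all genes. These were Slc30a9 (0.24) and Slc39a1 (0.26) on the higher side and Slc39a6 (-0.28, or -0.13 without HMGB2-KO replicate 3) on the lower. The largest difference was that of Slc39a10, an importer, at 0.43 (0.26 to 0.62 with 1 liver left out), and it overlapped through HMGB2-KO replicate 1. Slc30a6, an exporter into the secretory pathway, was at 0.16, or -0.06 without HMGB2-KO replicate 3. For genotype the 20 log2 fold changes ran from -0.20 to 0.30, and 0 of 24 transporters passed in limma, with a smallest unadjusted p of 0.130 among the 20. The median genotype difference was 0.02 over Slc30 and -0.00 over Slc39 genes against -0.00 over all genes; with the values as deposited these were -0.10, -0.12 and -0.12.

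The other metallothionein genes did not share the range of Mt1 and Mt2. Mt3, known mainly from brain, lay at 0.37, 0.40 and -0.13 in WT and 0.09, 0.04 and -0.02 in HMGB2-KO. Its livers numbered 3 were the lowest as well, by 0.51 within WT but 0.09 within HMGB2-KO. Mt4, a metallothionein of squamous epithelium, lay between -0.43 and -0.04 with both sets overlapping.

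Other genes linked to MTF1 were read next. Of Gclc, Selenow, Ndrg1 and Csrp1, 0 passed for genotype and 0 had livers numbered 3 on 1 side of the rest. Gclc, a subunit of the enzyme that starts glutathione synthesis, was at -1.14 in WT replicate 2 (-0.88 as deposited) and between -0.33 and 0.40 in the other livers. Selenow, a selenoprotein, differed by 0.29 between livers numbered 3 and the others, and Ndrg1, a stress-induced gene, by 0.49, or 0.14 without HMGB2-KO replicate 3 and 0.84 without WT replicate 3. Of 10 copper-handling genes 0 passed for genotype and 2 had no overlap by liver number, a share near the 19.7% of all genes. Commd1, a copper regulator, differed by 0.34 there (0.18 to 0.50 with 1 liver left out). The copper-exporting ATPase Atp7b differed by 0.40 with overlap (0.26 to 0.56), and the copper chaperone Cox17 by 0.18 with overlap (0.04 to 0.32).

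Of 14 genes known to respond to glucocorticoids or fasting, 7 had livers numbered 3 below all others and 1 above, all 8 by at least 1. Over all genes 9.32% lay below and 10.4% above, and 0.877% did either by at least 1. The list was chosen with earlier results of these livers known, so its counts beside those shares are a description. The other 6 overlapped, namely Tsc22d3 (-0.16), Sgk1 (-0.06), Tat (-0.26), Ddit4 (-0.20), Cebpd (-0.45) and Dusp1 (0.27). The median difference over the list was -0.79, against -0.00 over all genes. Angptl4, a fasting-induced inhibitor of lipoprotein lipase, lay at 1.42, 1.56 and -1.76 in WT and 1.78, 2.29 and -0.75 in HMGB2-KO. Zbtb16, a glucocorticoid-induced transcription factor, lay at 2.15, 2.31 and -0.01 in WT and 1.35, 2.32 and -0.31 in HMGB2-KO. In neither did WT replicate 1 stand midway between the sets, as it did for Mt1 and Mt2. The list varied in this. For Fkbp5 WT replicate 1 was at 0.47, between 1.65 in WT replicate 2 and -0.87 in WT replicate 3. The HMGB2-KO replicates 1 to 3 lay at 0.07, 1.81 and -0.99. HMGB2-KO replicate 1 was thus below WT replicate 1 for Fkbp5, whereas it was the highest liver for Mt1 and Mt2. For Klf9 the WT replicates 1 to 3 were at 1.11, 1.15 and -0.04, and the HMGB2-KO replicates at 1.48, 1.37 and 0.33. Whether the list and the metallothioneins share a cause was not tested. Cdkn1a, an inhibitor of cyclin-dependent kinases, was higher in livers numbered 3, at -2.47, -2.75 and -0.52 in WT and -2.11, -3.15 and 0.24 in HMGB2-KO.

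For genotype 0 of these 14 passed, and Dusp1, a phosphatase induced early after stress, had an unadjusted p of 0.0152 in limma (log2 fold change -0.77, SE 0.25, adjusted p = 0.994). Dusp1 also differed by 0.78 between livers numbered 3 and the others within WT and by -0.23 within HMGB2-KO.

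Of 14 genes induced by interleukin 6 through STAT3, 9 had livers numbered 3 above all others, 6 of them by at least 1, and 1 below, with a list median of 0.55. Over all genes 10.4% lay above, 0.297% by at least 1, and 9.32% below. This list too was chosen with earlier results of these livers known, so the counts are a description. The 4 that overlapped were Socs3 (-0.03), Stat3 (0.03), Steap4 (-0.31) and Fgb (0.16). Slc39a14, Mt1 and Mt2, which are known to respond to the same cytokine, were lowest in the livers numbered 3. The cause of either pattern was not tested. Hamp, which encodes the iron hormone hepcidin, lay at -0.66, -0.92 and 1.30 in WT and -1.31, -0.81 and 1.13 in HMGB2-KO. Saa1, an acute-phase protein, lay at -4.95, -4.27 and -2.48 in WT and -4.70, -4.04 and -0.43 in HMGB2-KO. Its close copy Saa2, whose value may be shared with it, differed by 3.47 between the sets, or 2.13 without HMGB2-KO replicate 3 and 2.27 with quantile normalization. The 1 gene lower was Il6ra, which encodes the interleukin 6 receptor subunit, at 1.27, 1.95 and -0.43 in WT and 1.20, 1.81 and 0.14 in HMGB2-KO. For genotype 0 of the 14 passed, and 0 had an unadjusted p under 0.05 in limma, as in the lists of metallothioneins, transporters, MTF1-linked and copper genes.

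**Figure D2:**
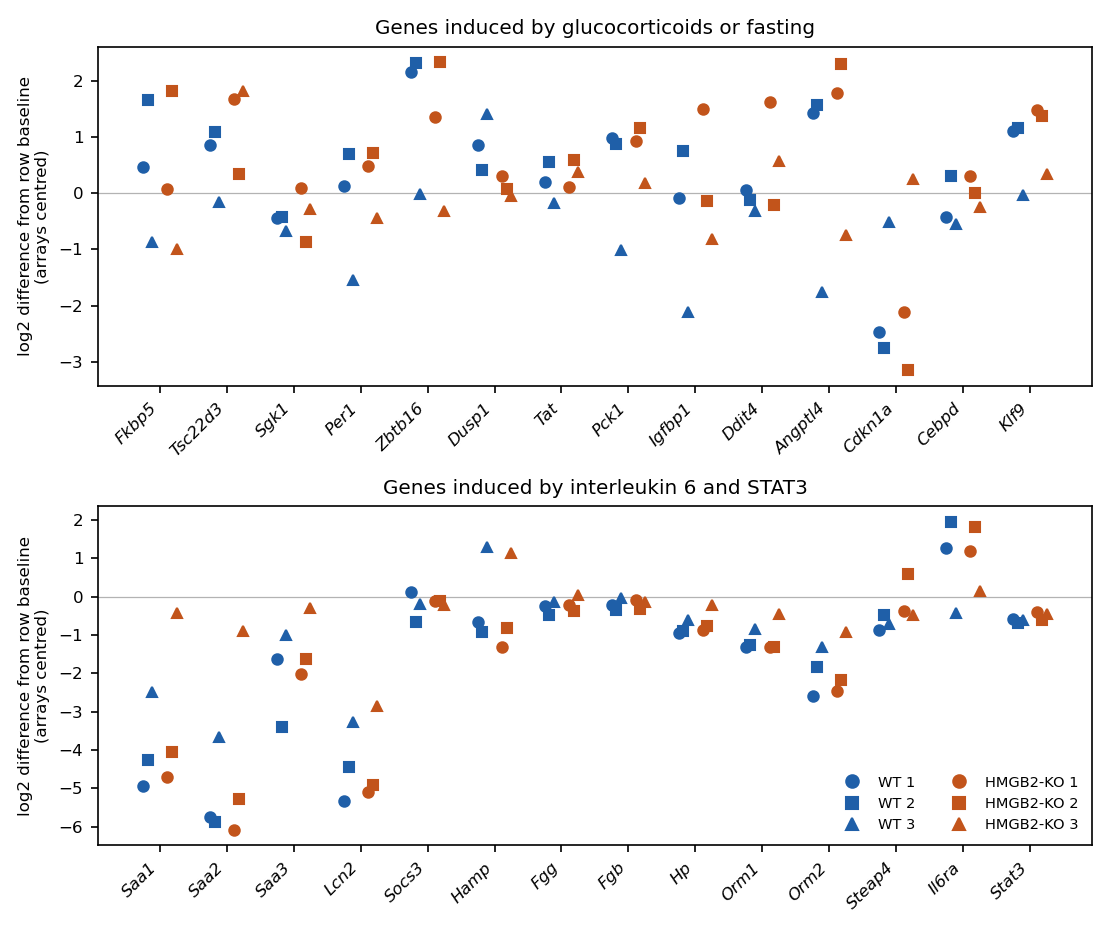
Values in each liver of 14 genes known to be induced by glucocorticoids or fasting (top) and of 14 induced by interleukin 6 and STAT3 (bottom), as log2 differences from the row baseline after centring. Triangles mark livers numbered 3, which lie below the others for genes such as Angptl4 and Zbtb16 and above them for Cdkn1a, Hamp, Saa1 and Saa2.

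Markers of cell types were read beside these differences. Of 22 plasma protein genes of hepatocytes 8 had both livers numbered 3 above the others, as 10.4% of all genes did, none by 1 or more, with a list median difference of 0.12. As deposited, the medians of this list ran from -0.06 to 0.04 over the 6 livers, with WT replicate 2 the highest, and the centring that subtracts 0.26 there puts that liver at -0.22 and the others between -0.01 and 0.04. Against 19.7% of all genes without overlap in either direction, the Kupffer cell list had 2 of 9 (median difference 0.12), the endothelial list 1 of 7 (-0.03), the stellate list 1 of 7 (0.05), the cholangiocyte list 0 of 5 (0.00), the neutrophil list 0 of 6 (0.04) and the erythroid list 0 of 2 (0.13). Of pancreas genes 2 of 6 did not overlap (-0.14) and of intestine genes 2 of 5 (-0.12). No marker differed by 1 or more without overlap, where Mt1 and Mt2 differed by over 4. For genotype 0 markers passed in limma. An unadjusted p under 0.05 in limma was found for 2 of 7 endothelial and 2 of 5 intestine genes. It was found for 0 in the other marker lists, against 3.68% of all genes. Genotype estimates were positive for 9 of 9 Kupffer, 5 of 5 intestine and 0 of 2 erythroid genes, and of both signs in each other list. Since values hold no level, whether a marker is absent cannot be read.

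The genes whose pattern was most like that of the metallothioneins were sought by Pearson correlation with the mean of Mt1 and Mt2 over the 6 livers, among 1509 genes with a range of at least 1. Of these 10 reached 0.95. The correlation is a description over 6 livers in which the low pair numbered 3 carries much of it, and all genes share the same arrays. Low livers numbered 3 and an intermediate WT replicate 1 are favoured by this choice of genes and are no separate result. Ulk1, a kinase that starts autophagy, came first (r = 0.99), with the same order of livers as Mt1 and Mt2. It lay at 0.11, 0.81 and -0.47 in WT and 0.91, 0.71 and -0.61 in HMGB2-KO, with WT replicate 1 between the 2 sets.

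Rgs16, a regulator of G protein signalling, followed (r = 0.99) and was the gene of this group that matched the metallothioneins in range. It lay at 3.19, 5.75 and -0.05 in WT and 6.97, 4.69 and 0.14 in HMGB2-KO, so it too was intermediate in WT replicate 1. Cebpb, a transcription factor of liver metabolism and the acute phase (r = 0.97), lay at -0.37, 0.11 and -0.996 in WT and 0.12, 0.01 and -0.68 in HMGB2-KO. Gys2, the glycogen synthase of liver (r = 0.97), lay at 0.61, 1.31 and 0.29 in WT and 1.30, 1.39 and 0.05 in HMGB2-KO. Tcp11l2 (r = 0.98), the folate carrier gene Slc25a32 (r = 0.98), Arhgef26 (r = 0.98) and Spata2l (r = 0.97) completed the 8, with ranges of 1.33 to 1.80.

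**Figure D3:**
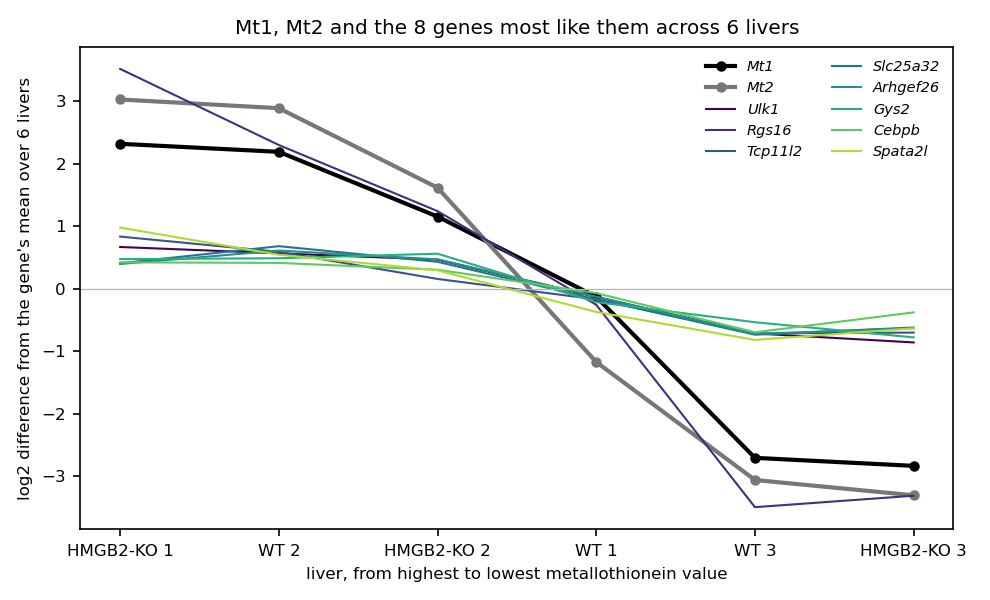
Mt1 (black), Mt2 (grey) and the 8 genes most correlated with their mean, as log2 differences from each gene's own mean over the 6 livers, with livers ordered from the highest to the lowest metallothionein value. Each line is 1 gene; all are lowest in the livers numbered 3, and Rgs16 alone of the 8 spans as wide a range as Mt1 and Mt2.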

How the data were processed

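Total RNA of 6 livers was labelled with biotin and hybridised to Clariom S arrays, per the labels' protocols. The deposited table holds 22206 rows of values taken as log2, from -8.60 to 6.93. Not given in the sources used here are the base of the logarithm, probe summarization, normalization and row baseline. Each array was centred on its median. The platform annotation names 19572 rows with 1 symbol, 0 with several and leaves 2634 unnamed here. Where a gene had more than 1 row (55 genes), that of highest mean value was used. Since values hold no level, this is not a choice by abundance. No probe could be judged against background.

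Differences were fitted with lmFit and eBayes of limma 3.58.1 (R 4.3.3; two-sided, genotype as the factor) over 19505 genes with Benjamini-Hochberg adjustment, threshold 0.05. Liver number 3 and its interaction with genotype were further terms. Members and lists were chosen with earlier results of these data known. Named genes are the members, list genes with unadjusted p under 0.05 for genotype or among the 3 with the largest difference by liver number, and the 8 genes most correlated with Mt1 and Mt2; of the cell type markers counts are given. Other genes shown were chosen after their values were seen. Deviations of same-numbered livers from their genotype means correlated at 0.04, 0.13 and 0.29 for numbers 1 to 3. At numbers 2 and 3, but not at 1, each liver was most like the liver of its own number in the other genotype. The main fit did not pair the livers, and a fit with liver number as a block was among the alternatives. On simulated data (10 runs of 19505 genes, 200 of them changed) the genotype fit found 58.7% of 2-fold and 91.3% of 4-fold changes. The simulated spread was that left after both genotype and liver number were fitted. The genotype fit has no liver number term, so these shares are too high, most of all for genes that vary by liver number, such as Mt1 and Mt2. With 200 changed genes the adjusted threshold is also easier to pass than where few genes change. In the real data Hmgb2, at -0.89, did not pass, so the shares are not the power of the real fit. Alternatives changed scaling, rows, weights, block and livers. Promoters are from RefSeq, build GRCm38.p6. Protein sequences were not used here.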

Additional observations from a re-analysis of the deposited data

How the results depend on the processing

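No member passed for genotype under any of the 15 alternatives tried, and the genotype count over all genes was 0 in each. With the replicate block, in which liver number is a factor, 0 members and 0 genes passed, with Mt1 at 0.43 and Mt2 at 0.89 as before. With the values as deposited the genotype estimate was -0.0598 for Mtf1 and -0.0869 for Slc39a4, and the liver number difference of Mtf1 was -0.0818. Centred on plasma protein genes these were -0.0284, -0.0555 and -0.0658. Quantile normalization put the liver number difference of Slc39a4 at 0.0466, and livers numbered 1 and 2 alone its genotype estimate at -0.19. The count of genes past the threshold for liver number, 8, was 22 with quantile normalization, 22 with array weights and 5 centred on plasma protein genes, and ran from 1 to 12 with 1 liver left out. The count of 1 came without a liver numbered 3, where 1 liver stood for that set and its spread was taken from the others. The interaction count was 1 with quantile normalization. With 1 liver left out, genotype estimates ran from -0.82 to 1.95 for Mt1, -0.41 to 2.77 for Mt2, -0.0495 to 0.19 for Mtf1, -0.48 to 0.34 for Slc30a10, -0.10 to 0.17 for Slc39a4 and -0.60 to 0.0927 for Slc39a14. Liver number differences ran from -0.10 to 0.10 for Mtf1, -0.39 to 0.28 for Slc39a4, -0.23 to 0.78 for Dusp1 and -0.0616 to 0.37 for Slc30a6. The cause was not tested. From 4 to 6 members had livers numbered 3 on 1 side of the others with 1 liver left out. The 6 came without HMGB2-KO replicate 3, which left 1 liver numbered 3 and so an easier condition. The share of all genes was not computed for these smaller sets.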
